A study of Mus musculus with 6 samples.

Results

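The 10 genes described here are antiviral effector and restriction genes: *Rsad2*, *Cmpk2*, *Mx1*, *Mx2*, *Bst2*, *Ifitm3*, *Eif2ak2*, *Samhd1*, *Adar* and *Apobec3*. They were chosen out of 36137 genes in the data by name and role, with earlier results of these data known. Their proteins act on viruses directly or on the nucleotides and RNA that viruses use. A gene's value was the sum of the estimated counts of its transcripts. All 10 passed the filter of at least 10 counts in total, as did 18506 genes in all. Their RNA was measured in mouse bone marrow-derived macrophages (BMDMs), which are macrophages grown from marrow with L929 cell medium as the source of macrophage growth factor. On day 7 the cells were held for 8 hours in hypoxia with serum starvation (HSS), at 2.1% oxygen by the labels, a culture model of ischemia, and the question was how macrophages without the mitochondrial fission GTPase DRP1 differ from WT under this stress. Drp1 KO cells came from *LysM*-Cre+/- *Drp1* fl/fl mice and WT cells from *LysM*-Cre+/- *Drp1*+/+ mice, with 3 libraries each. Both groups carry the Cre transgene under the lysozyme M promoter, which is active in myeloid cells, and both were exposed to HSS, so no library shows either genotype without it. Marrow of a pair of mice per genotype was pooled for BMDM cultures. The labels call the libraries biological replicates, but it is not stated whether each came from a separate pool, so p-values measure the spread between these libraries.

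Cells recognise viral RNA and DNA through sensors that switch on type I interferon. Interferon then binds its receptor, and a complex of transcription factors enters the nucleus and binds interferon-stimulated response elements before a large set of genes. The products of these genes block viruses at separate steps: entry through membranes, genome copying, protein synthesis and release of new particles. Macrophages keep some of these genes on at rest and raise others sharply after interferon.

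Libraries held 24269850 to 28650715 estimated counts in WT and 23389488 to 32231206 in Drp1 KO, the lowest being Drp1 KO library 1. Levels are given in CPM (read counts scaled to library size with TMM factors), and a count of 3 was 0.0917 to 0.136 CPM. The targeted gene, *Dnm1l*, was at 72.7, 69.9 and 75.1 CPM in WT libraries 1 to 3 and 58.7, 60.7 and 66.3 CPM in Drp1 KO. The groups did not overlap, but the difference did not pass the test (log2 fold change -0.23, adjusted p = 0.248, edgeR). This sum covers all exons, and the deleted exons are not given in the sources used here, so it is a weak check of the labels. Macrophage markers summed to 13700 to 15100 CPM in WT against 12200 to 14600 CPM in Drp1 KO. Of 10 macrophage markers, 1 rose (*Fcgr1*) and 2 fell (*Csf1r* and *Mertk*), named here after their values were seen. The calls of *Csf1r* and *Mertk* ended with several of the libraries left out. Neutrophil markers summed to 52.7 to 66.9 CPM in WT against 65.6 to 95.1 CPM in Drp1 KO, with *Ly6g* at 0 counts in all 6 libraries. Most of that sum was *Csf3r*, at 45.3 ± 1.66 against 43.9 ± 2.00 CPM (SD, n = 3). Of the 8 tested, 7 markers were fitted higher in Drp1 KO. Of these markers, 0 had an adjusted p under 0.05 with edgeR and 0 with limma-voom, 2 with DESeq2 and 4 with the replicate block, and 4 had an unadjusted p under 0.05. The 4 with the block were *Ltf*, *Ngp*, *S100a8* and *S100a9*, named after their values were seen. *S100a9* was at 8.59 ± 4.56 CPM in WT against 21.2 ± 8.87 CPM in Drp1 KO, with overlap. Plasmacytoid dendritic cells, which are strong interferon producers, were represented by markers that summed to 101 to 119 CPM in WT against 105 to 136 CPM in Drp1 KO, with *Ly6d*, *Klk1* and *Cd209d* at 0 counts and *Siglech* at 0.615 ± 0.265 CPM in WT against 0.682 ± 0.231 CPM in Drp1 KO (SD, n = 3). Most of that sum was *Tcf4*, at 104 ± 9.98 against 114 ± 15.2 CPM. Of the 4 tested, *Cox6a2* was at 0.733, 0.675 and 0.477 CPM in WT against 2.09, 2.02 and 1.07 CPM in Drp1 KO, with no overlap (log2 fold change 1.45). It did not pass with edgeR (adjusted p = 0.0654) or limma-voom (0.0932) but did with DESeq2 (0.0171) and the replicate block (0.00781). Lymphocyte markers summed to 308 to 324 CPM in WT against 124 to 248 CPM in Drp1 KO, nearly all of it *Cd4* (log2 fold change -0.90), which did not pass with edgeR (adjusted p = 0.0595) but did with DESeq2 (0.000933), limma-voom (0.0360) and the block (0.00228). Fibroblast and endothelial markers summed to 27.1 to 34.5 CPM against 40.0 to 45.5 CPM, and 1 of 9 rose, *Kdr* (log2 fold change 0.94, edgeR adjusted p = 0.0144), a call that ended without WT library 2 (0.106) or 3 (0.0892). Conventional dendritic cell markers summed to 8.93 to 11.2 CPM against 6.81 to 8.71 CPM, and of 6 tested 0 were called with edgeR, DESeq2 or limma-voom, while 1 was lower by an unadjusted p under 0.05. *Cox6a2*, *Cd4* and *Kdr* were named after their values were seen. In bulk RNA, fewer cells of a type and less RNA per cell cannot be told apart.

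The upstream windows printed here show what lies before the starts of the genes discussed, each 250 bases ending at the base before the canonical start, read 5′ to 3′ along the gene from GRCm39. The first set holds the 3 members with an interferon-stimulated response element core, searched as GAAANNGAAA on both strands. Capitals mark the matches. *Rsad2* rose in the test of Drp1 KO against WT, and *Bst2* and *Apobec3*, which did not pass it, were added after their values were seen.
Rsad2 (chr12:26506452-26506701, minus strand): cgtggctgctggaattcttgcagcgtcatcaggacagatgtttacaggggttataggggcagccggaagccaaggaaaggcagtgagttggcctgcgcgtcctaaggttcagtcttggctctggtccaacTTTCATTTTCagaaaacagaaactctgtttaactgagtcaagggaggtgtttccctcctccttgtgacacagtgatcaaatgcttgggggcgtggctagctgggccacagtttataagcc
Bst2 (chr8:71990115-71990364, minus strand): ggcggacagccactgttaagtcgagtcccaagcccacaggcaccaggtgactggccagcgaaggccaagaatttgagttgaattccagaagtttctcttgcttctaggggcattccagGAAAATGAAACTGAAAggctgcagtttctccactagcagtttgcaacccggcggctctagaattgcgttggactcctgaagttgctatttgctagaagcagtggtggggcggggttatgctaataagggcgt
Apobec3 (chr15:79776335-79776584, plus strand): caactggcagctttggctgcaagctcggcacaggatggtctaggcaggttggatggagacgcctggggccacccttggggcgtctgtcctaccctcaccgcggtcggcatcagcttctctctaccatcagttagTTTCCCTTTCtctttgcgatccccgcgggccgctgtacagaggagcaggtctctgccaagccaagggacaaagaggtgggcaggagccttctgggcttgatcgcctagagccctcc

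The match lay at positions -120 to -111 from the start in *Rsad2* and at -116 to -107 in *Apobec3*, both on the opposite strand. *Bst2* had 2 overlapping matches, at -132 to -123 and -126 to -117, on the strand of the gene. Of the windows of all 18506 genes tested, 617 (3.33%) held this core. The gamma-activated site, TTCNNNGAA on either strand, was found before *Bst2*, *Eif2ak2* and *Samhd1*, and before 1271 genes in all (6.87%). In *Bst2* this site, at -138 to -130, overlapped the first core. The second set is the Mx pair, shown because their windows resemble each other. Here capitals mark the same 4-base sites with 1 base between them, GAAANGAAA on either strand, a form searched after the windows had been read.
Mx1 (chr16:97264107-97264356, minus strand): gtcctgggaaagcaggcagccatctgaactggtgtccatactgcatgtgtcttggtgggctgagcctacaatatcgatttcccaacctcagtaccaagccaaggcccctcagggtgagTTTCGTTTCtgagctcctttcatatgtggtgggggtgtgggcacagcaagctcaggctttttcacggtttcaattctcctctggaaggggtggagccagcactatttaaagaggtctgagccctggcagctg
Mx2 (chr16:97337031-97337280, plus strand): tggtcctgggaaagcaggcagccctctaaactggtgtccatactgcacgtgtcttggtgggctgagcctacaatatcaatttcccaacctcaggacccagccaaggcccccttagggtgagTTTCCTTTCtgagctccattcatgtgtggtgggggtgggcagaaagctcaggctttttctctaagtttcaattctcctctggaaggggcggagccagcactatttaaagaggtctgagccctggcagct

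*Mx1* had this form at positions -132 to -124 and *Mx2* at -129 to -121, and 604 windows in all (3.26%) held it. Of the 10 members, these were the 2 that did. The Mx windows shared 231 identical bases over 255 alignment columns (90.6%), while the other 44 pairs of members' windows had 43.4% to 52.0% by the same alignment. The windows of *Cmpk2*, *Ifitm3* and *Adar*, which rose as well, held none of the 3 forms, which says only that these letters are not in these 250 bases. A match is a description of the sequence and not a site shown to be bound.

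All 10 members were fitted higher in Drp1 KO than in WT, with a median log2 fold change of 1.16, against 0.005 over all genes tested. With edgeR's quasi-likelihood test and an adjusted p under 0.05, 6 rose, *Rsad2*, *Cmpk2*, *Mx1*, *Mx2*, *Ifitm3* and *Adar*, and 0 fell (0 also by unadjusted p, DESeq2 and limma-voom). *Bst2*, *Eif2ak2*, *Samhd1* and *Apobec3* did not pass. Over all genes tested, 3.36% were called and 2.29% were called higher in Drp1 KO. The members were chosen with earlier results of these data known, so their count beside these shares is a description. In 8 members every Drp1 KO library was above every WT library, which held for 11.7% of all genes. *Bst2* and *Eif2ak2* were the exceptions. The members together summed to 846 to 951 CPM in WT and 1440 to 1770 CPM in Drp1 KO. The 8 tested neutrophil markers had the same median log2 fold change, 1.16, and the part of the cell type markers in the result was not tested. The libraries carry the same replicate numbers in both groups, though no source states that same-numbered libraries are pairs. A fit with these numbers as a block called 9 members, all but *Samhd1* (adjusted p = 0.122, edgeR). That fit also called more of all genes, 12% against 3.36% without the block, and 6.73% were called higher in Drp1 KO.

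**Figure D1:**
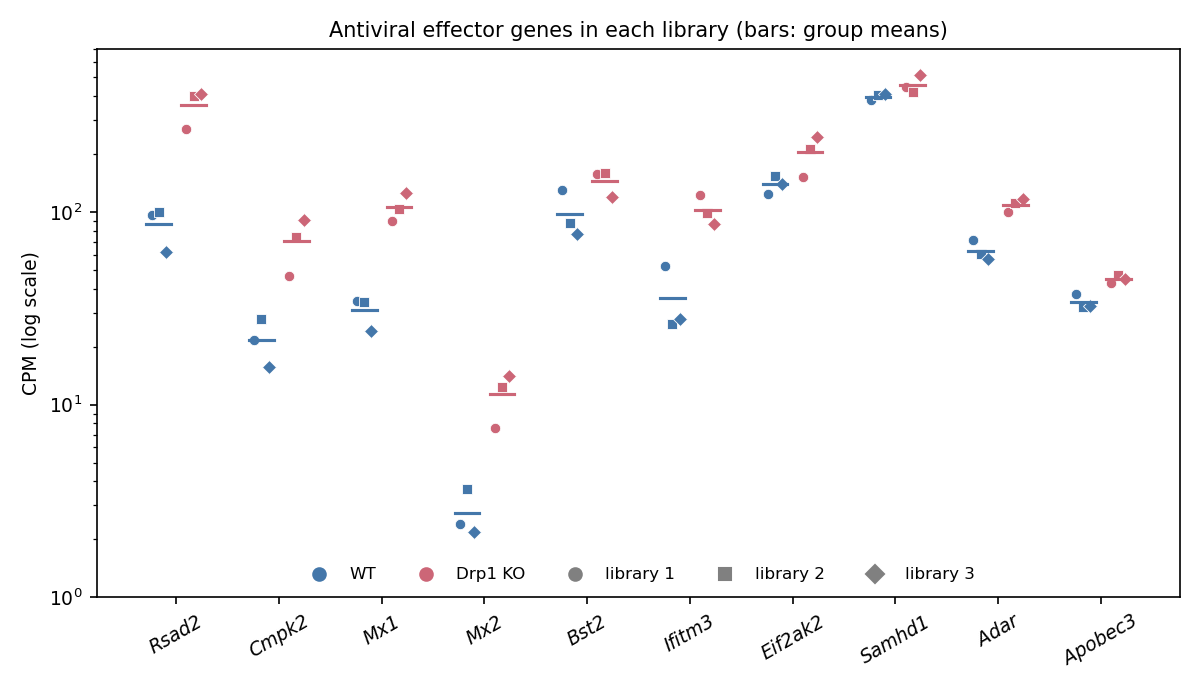
Level of each of the 10 genes in every library, in CPM on a log axis, with WT in blue and Drp1 KO in red. The marker shape gives the library number and horizontal bars are group means. The 6 called genes have all Drp1 KO points above all WT points, while the groups of *Bst2* and *Eif2ak2* overlap.

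*Rsad2* and *Cmpk2* act on nucleotides and are neighbours on chromosome 12, transcribed away from each other with 12752 bases between their starts. *Rsad2* (ENSMUSG00000020641, chr12:26492745-26506451, minus strand) encodes viperin, a radical SAM enzyme that turns CTP into a chain terminator of viral RNA synthesis. Its level was 96.2, 101 and 62.4 CPM in WT libraries 1 to 3 and 271, 400.1 and 411 CPM in Drp1 KO libraries 1 to 3. The lowest Drp1 KO library was 2.70 times the highest WT library. The means were 86.4 ± 20.9 and 361 ± 77.7 CPM (SD, n = 3), a log2 fold change of 2.06 (SE 0.205, 95% confidence interval 1.61 to 2.52, edgeR adjusted p = 0.000624).

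*Cmpk2* (ENSMUSG00000020638, chr12:26519203-26529836, plus strand) encodes a mitochondrial UMP-CMP kinase. Its level was 21.6, 28.0 and 15.8 CPM in WT against 46.8, 74.5 and 91.5 CPM in Drp1 KO. The groups did not overlap, but the Drp1 KO libraries spanned 1.96-fold (highest over lowest), the widest span among the members in that group, with library 1 lowest. Its log2 fold change was 1.71 (SE 0.252, edgeR adjusted p = 0.00587). The ratio of *Rsad2* to *Cmpk2* CPM was 4.45, 3.60 and 3.95 in WT and 5.80, 5.37 and 4.50 in Drp1 KO. Every Drp1 KO ratio was above every WT ratio, the nearest being Drp1 KO library 3 and WT library 1, and this difference was not tested.

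*Samhd1* (ENSMUSG00000027639, chr2:156939453-156977187, minus strand) also acts on nucleotides: it cleaves deoxynucleotide triphosphates and so starves reverse transcription. It was the member with the smallest difference. Its level was 380.1, 405 and 408 CPM in WT against 447, 419 and 512 CPM in Drp1 KO. The groups did not overlap, and the lowest Drp1 KO library was 1.03 times the highest WT library. It differed by 0.21 on the log2 scale, with a 95% confidence interval of -0.02 to 0.43 (edgeR adjusted p = 0.357), and it was not called in any of the 15 alternatives fitted.

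The Mx proteins are dynamin-like GTPases that form rings around viral nucleoproteins, and so belong to the same protein superfamily as DRP1. *Mx1* (ENSMUSG00000000386, chr16:97248235-97264107, minus strand) was at 34.4, 34.3 and 24.1 CPM in WT against 89.8, 103 and 125 CPM in Drp1 KO. Every Drp1 KO library was at least 2.61 times every WT library. The log2 fold change was 1.78 (SE 0.164, 95% confidence interval 1.42 to 2.15, edgeR adjusted p = 0.000433), the smallest p among the members.

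*Mx2* (ENSMUSG00000023341, chr16:97336508-97362100, plus strand) had the lowest level, 2.41, 3.67 and 2.18 CPM in WT against 7.54, 12.4 and 14.2 CPM in Drp1 KO. These rest on 218 WT counts and 1034 Drp1 KO counts. The groups did not overlap, with library 1 lowest in Drp1 KO, and the log2 fold change was 2.05 (SE 0.271, edgeR adjusted p = 0.00312). The genes lie 73175 bases apart by their starts, on opposite strands. Of the distinct 31-base stretches of their transcripts, 8.13% of those of *Mx1* and 8.01% of those of *Mx2* occur in the other. Reads that lie wholly in these may fit both genes, and their share was not measured. Laboratory strains such as C57BL/6 are known to carry defective Mx genes. In the reference annotation the canonical *Mx2* transcript has the type protein_coding_LoF, meaning that its coding sequence is broken in the reference strain, and none of the *Mx2* transcripts in the data has an intact protein-coding type. RNA levels of this pair therefore do not give levels of Mx protein.

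*Ifitm3* and *Bst2* encode membrane proteins that act on entry and on release. *Ifitm3* (ENSMUSG00000025492, chr7:140589499-140591282, minus strand) blocks fusion of virus particles with endosomes. Its level was 52.6, 26.4 and 27.8 CPM in WT against 123, 98.4 and 87.1 CPM in Drp1 KO. Library 1 was highest in both groups, and in WT it was 1.99 times the lowest library. The log2 fold change was 1.53 (SE 0.245, edgeR adjusted p = 0.00826). Leaving out WT library 2 or 3 ended this call, with log2 fold changes of 1.34 and 1.37 and edgeR adjusted p of 0.0579 and 0.0512, in a range of 2.53e-08 to 0.0579 over the alternatives. Other genes' transcripts hold 11.4% of its 31-base stretches, spread over 11 genes, of which *Gm7676* holds most (3.85%).

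*Bst2* (ENSMUSG00000046718, chr8:71986895-71990114, minus strand) encodes tetherin, which holds budding particles at the cell surface, and is also a marker of plasmacytoid dendritic cells in mice. It was at 129.5, 87.9 and 77.3 CPM in WT against 158, 160.0 and 119.6 CPM in Drp1 KO. WT library 1 lay above Drp1 KO library 3, so the groups overlapped. The log2 fold change of 0.57 (95% confidence interval 0.16 to 0.98) did not pass (edgeR adjusted p = 0.144). It passed without WT library 1 (log2 fold change 0.82, adjusted p = 0.0123), with the replicate block (adjusted p = 0.00417) and with a filter of at least 1 count (adjusted p = 0.0237), all in edgeR. Over all alternatives its adjusted p ran from 0.00417 to 0.449.

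WT library 1 also stood apart in *Irf7*, which encodes the interferon regulatory factor that amplifies the response. *Irf7* was at 74.7 CPM in this library and at 21.2 and 19.3 CPM in WT libraries 2 and 3, against 349, 355 and 271 CPM in Drp1 KO. It was chosen after its values were seen. Among the members, WT library 1 was the highest of its group for *Mx1*, *Bst2*, *Ifitm3*, *Adar* and *Apobec3*, and WT library 3 the lowest for 6 members. In Drp1 KO, library 1 was the lowest for 7 members and library 3 the highest for 7, *Ifitm3* and *Bst2* being lowest in library 3. The part of depth in this order was not tested.

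*Eif2ak2*, *Adar* and *Apobec3* act on RNA or on reverse-transcribed DNA. *Eif2ak2* (ENSMUSG00000024079, chr17:79159972-79190012, minus strand) encodes PKR, a kinase that double-stranded RNA activates and that stops translation by phosphorylating eIF2 alpha. It was at 125, 154 and 139 CPM in WT against 153, 214 and 247 CPM in Drp1 KO. Drp1 KO library 1 lay just under WT library 2, and Drp1 KO libraries 2 and 3 lay above all WT libraries. Its log2 fold change was 0.55 (95% confidence interval 0.19 to 0.91, edgeR adjusted p = 0.104). It passed without Drp1 KO library 1 (log2 fold change 0.72, adjusted p = 0.00856) and with the replicate block (adjusted p = 0.00569), in edgeR, with a filter of at least 1 count (edgeR adjusted p = 0.0162), and with DESeq2 (adjusted p = 0.0255), out of a range of 0.00569 to 0.307.

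*Adar* (ENSMUSG00000027951, chr3:89622329-89660753, plus strand) encodes the enzyme that changes adenosine to inosine in double-stranded RNA and so keeps the cell's own RNA from the sensors. Its level was 71.8, 60.3 and 56.7 CPM in WT against 99.6, 111 and 116 CPM in Drp1 KO, with no overlap and a spread of 1.17-fold within Drp1 KO. This was a log2 fold change of 0.79 (SE 0.113, edgeR adjusted p = 0.00475), the smallest among the called members. Without WT library 2 it was 0.75 and no longer passed (edgeR adjusted p = 0.0552), the highest of a range that began at 7.11e-07.

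*Apobec3* (ENSMUSG00000009585, chr15:79775860-79800206, plus strand) encodes a cytidine deaminase packaged into retroviruses. It was at 37.6, 32.3 and 32.7 CPM in WT against 42.8, 47.1 and 45.1 CPM in Drp1 KO. The groups did not overlap, though the lowest Drp1 KO library was only 1.14 times the highest WT library. The log2 fold change of 0.40 (95% confidence interval 0.17 to 0.63) did not pass (edgeR adjusted p = 0.0699). It passed with the replicate block (adjusted p = 0.0160), without WT library 1 (adjusted p = 0.0401) and with protein-coding transcripts only (adjusted p = 0.0395) in edgeR, and with DESeq2 (adjusted p = 0.0299), while its highest adjusted p under an alternative was 0.322.

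Compared per length, in the deposited TPM values, the members spanned a wide range in WT. The deposited effective length, which enters TPM, exceeded the transcript's own length in any library for 17986 transcripts. The part of this in the levels was not tested. Over all transcripts *Samhd1* was highest at 524 ± 21.6 TPM, followed by *Bst2* at 212 ± 52.7, *Ifitm3* at 104 ± 39.1, *Eif2ak2* at 57.9 ± 9.03 and *Rsad2* at 38.8 ± 7.65 TPM (SD, n = 3). *Mx1*, *Apobec3* and *Adar* came next at 26.4, 26.3 and 22.5 TPM. *Cmpk2* (10.7 TPM) and *Mx2* (2.38 TPM) were lowest. From *Rsad2* to *Adar*, each gene's WT range overlapped that of its neighbour in the order, and the other neighbours did not overlap. In Drp1 KO, *Samhd1* was still highest at 549 ± 70.2 TPM and *Mx2* still lowest at 11.0 ± 4.25 TPM. *Rsad2* (154 ± 37.3 TPM) and *Mx1* (123 ± 24.9 TPM) came before *Eif2ak2* (80.5 ± 21.6 TPM), which had been above both in WT. *Ifitm3* at 274 ± 33.7 TPM overlapped *Bst2* at 286 ± 38.3 TPM.

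This order depends on retained-intron transcripts, which have no annotated coding region. Samhd1-210 held 58.8% of the TPM of *Samhd1* in WT and 59.5% in Drp1 KO, and Mx1-206 held 28.9% and 44.8% of that of *Mx1*. With all retained-intron transcripts left out, an alternative added after the values were seen, *Samhd1* was at 179 ± 12.8 TPM in WT, where its range overlapped that of *Bst2*, and at 192 ± 25.03 TPM in Drp1 KO, below both *Bst2* and *Ifitm3*. *Mx1* was then at 18.3 ± 3.76 TPM in WT and 67.1 ± 14.9 TPM in Drp1 KO, where it overlapped *Eif2ak2* at 74.0 ± 20.1 TPM instead of lying above it. *Mx2* was lowest in both groups either way, and *Rsad2* was above *Eif2ak2* in Drp1 KO and below it in WT either way.

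Transcript estimates were examined where a second transcript held at least 5% of a member's counts in a group, which was so for 6 members. The share of the main transcript did not overlap between the groups in 3 of them, *Mx1*, *Mx2* and *Adar*. How often such shares separate over all genes was not computed, so this count has no background. With 3 libraries against 3, the exact permutation test cannot give a p below 0.1, so none of these shares can pass. The deposited estimates carry no error for the division of reads among transcripts, which is less certain than a gene's total.

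In *Mx1* the main estimate fell on Mx1-202, a transcript of 14 exons with no defined coding sequence, with 67.8%, 74.2% and 83.1% of the gene's counts in WT and 53.1%, 47.4% and 46.1% in Drp1 KO (exact two-sided permutation p = 0.1, n = 3 per group). All WT libraries lay above all Drp1 KO libraries. Its level was nonetheless 2.25 times as high in Drp1 KO, at 51.5 ± 5.50 against 22.9 ± 2.69 CPM (SD, n = 3). Mx1-209, annotated as broken in the reference, was at 0.383 estimated counts or less in each WT library and at 46.6, 531 and 561 counts in Drp1 KO. The retained-intron transcript Mx1-206 was at 0.878 ± 0.379 CPM in WT against 6.53 ± 0.829 CPM in Drp1 KO. Mx1-203 and Mx1-210 have the same sequence of 2790 bases, and the authors' estimates divide their reads equally.

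In *Mx2*, Mx2-201 held 90.5% to 100% of the counts in WT and 85.1% to 90.2% in Drp1 KO. By TPM the ranges overlapped, and the difference of the mean shares was -18.3 points instead of -6.65. In *Adar*, Adar-201 held 57.2%, 53.9% and 50.9% of the counts in WT and 62.3%, 64.2% and 65.2% in Drp1 KO (exact two-sided permutation p = 0.1, n = 3 per group). ADAR is known to exist as a long form, p150, from an interferon-inducible promoter, and a shorter form, p110, from a constitutive one. The annotation gives coding regions of 3456 and 3534 bases to Adar-201 and Adar-203, which start at position 89638043 of chromosome 3, and at most 2790 bases to transcripts that start upstream, from position 89622329. This grouping by start was made after the values were seen.

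**Figure D2:**
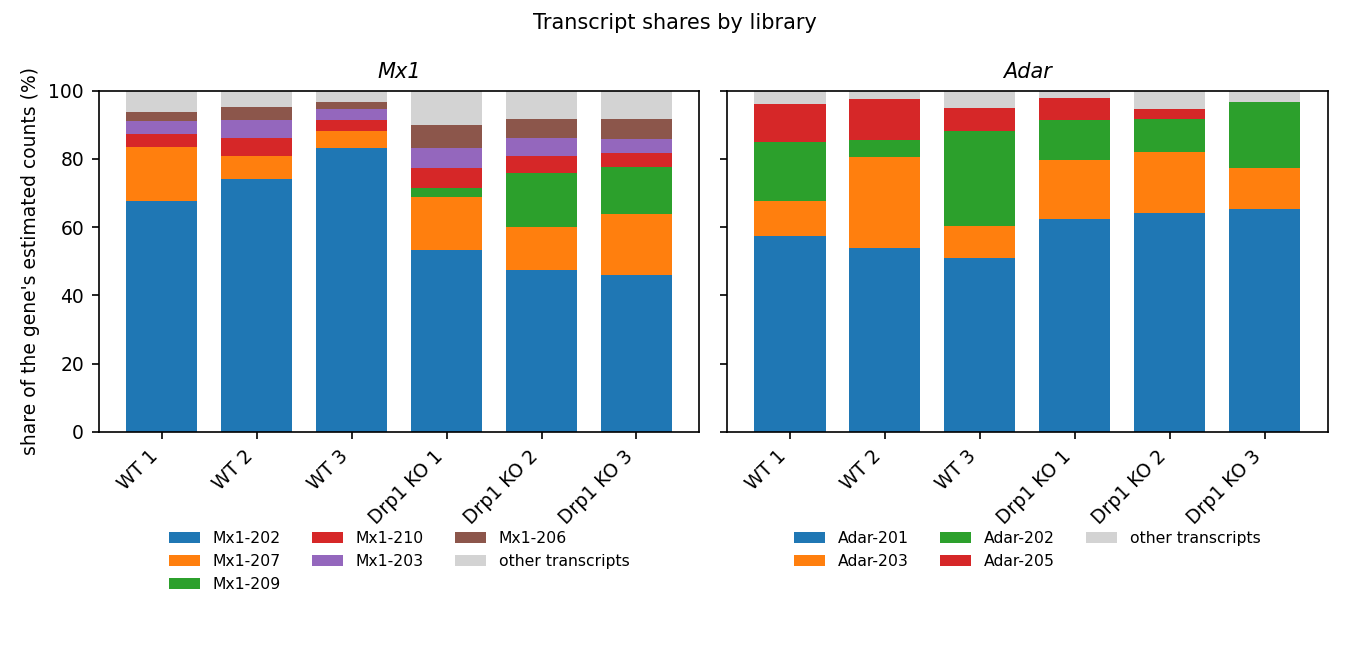
Share of the gene's estimated counts (%) on each transcript of *Mx1* and *Adar* with at least 5% in a group, by library. Grey stands for the other transcripts. The share of Mx1-202 is 46.1% to 53.1% in Drp1 KO and 67.8% to 83.1% in WT, and the share of Adar-201 is 62.3% to 65.2% in Drp1 KO and 50.9% to 57.2% in WT.

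The *Adar* transcripts with the long coding regions summed to 48.5, 48.6 and 34.3 CPM in WT against 79.4, 91.2 and 89.8 CPM in Drp1 KO, 1.98 times as high in the means, with no overlap (exact two-sided permutation p = 0.1, n = 3 per group). Those from the upstream start summed to 12.7, 3.23 and 15.9 CPM in WT against 11.8, 10.8 and 22.7 CPM in Drp1 KO, and the groups overlapped (exact two-sided permutation p = 0.6, n = 3 per group). The transcripts of the downstream start with short coding regions, of at most 1980 bases, were at 7.99 ± 2.18 CPM in WT against 5.53 ± 3.40 CPM in Drp1 KO (SD, n = 3), again with overlap. The share of the long-coding transcripts was 69.5% ± 10.2 in WT and 79.6% ± 2.39 in Drp1 KO (SD, n = 3), and its groups overlapped as well. The share of the short-coding downstream transcripts did not overlap, with 14.1%, 13.3% and 10.2% in WT against 7.43%, 6.81% and 1.38% in Drp1 KO (exact two-sided permutation p = 0.1, n = 3 per group). *Chrnb2*, on the opposite strand, holds 15.4% of the 31-base stretches of *Adar*, but its estimates summed to 161 counts in WT and 173 in Drp1 KO, against 4939 and 9629 for *Adar*.

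The shares of Samhd1-206 and Apobec3-205, the main transcripts of their genes, overlapped between the groups. Other transcripts of both genes had shares that did not overlap, Samhd1-201 with 15.2% to 16.7% in WT against 17.8% to 18.7% in Drp1 KO, and Apobec3-208 with 18.3% to 21.7% against 12.2% to 16.1% (exact two-sided permutation p = 0.1 each, n = 3 per group). These were picked from the transcripts of the 2 genes, again without a background over all genes. Samhd1-206 held 46.2% ± 1.86 in WT and 44.5% ± 1.16 in Drp1 KO (exact two-sided permutation p = 0.3, n = 3 per group). Apobec3-205 ranged from 43.0% to 64.8% within WT alone. The retained-intron transcript Apobec3-208 was at 6.90 ± 0.108 CPM in WT against 6.49 ± 0.662 CPM in Drp1 KO, and retained-intron and other untranslated transcripts count toward the sum of *Apobec3*. The members *Ifitm3*, *Bst2*, *Eif2ak2* and *Cmpk2* had 1 transcript at 5% or more.

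Members were set beside relatives of the same family or reaction, to see whether the families moved as a whole. No such list was made for *Rsad2* or *Bst2*. Of 34 relatives tested, 2 rose and 0 fell, with a median log2 fold change of 0.00, against 6 of 10 members that rose and 2.29% of all genes tested. By unadjusted p under 0.05, 4 were higher and 3 lower, with no share over all genes at hand. DESeq2 called 4 relatives higher and 0 lower, against 663 higher and 492 lower over all genes. With the replicate block 5 rose, *Apobec1*, *Dck*, *Ifitm2*, *Ifitm6* and *Rrm2b*, and *Eif2ak3* fell. Of the dynamin superfamily, 0 of 7 were called by edgeR, DESeq2 or limma-voom, 1 (*Dnm1l*) had an unadjusted p under 0.05, and their median was -0.16. *Dnm2*, *Opa1*, *Mfn1* and *Mfn2*, which act in endocytosis and mitochondrial fusion, had log2 fold changes of -0.10, -0.16, -0.19 and -0.10.

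Of the interferon-induced transmembrane family, *Ifitm6* rose from 0.506 ± 0.244 to 2.23 ± 0.761 CPM (SD, n = 3), with a log2 fold change of 2.14 (edgeR adjusted p = 0.0205). It rests on 39 WT and 186 Drp1 KO counts, and the call ended without WT library 2 (adjusted p = 0.109), WT library 3 (0.104) or Drp1 KO library 2 (0.0720) in edgeR. *Ifitm2*, a close relative of *Ifitm3* that was more abundant than *Ifitm6*, had a log2 fold change of 0.37 (edgeR adjusted p = 0.0695), with 60.4 to 67.7 CPM in WT against 77.1 to 88.3 CPM in Drp1 KO. The other eIF2 alpha kinases, *Eif2ak1*, *Eif2ak3* and *Eif2ak4*, had log2 fold changes of -0.03, -0.31 and -0.09, and 0 of 3 passed with edgeR, DESeq2 or limma-voom, while 1 (*Eif2ak3*) had an unadjusted p under 0.05 and passed with the replicate block (log2 fold change -0.32, edgeR adjusted p = 0.0341). *Apobec1*, an RNA-editing cytidine deaminase, was at 268 ± 20.1 CPM in WT against 340.2 ± 10.4 CPM in Drp1 KO (log2 fold change 0.34, edgeR adjusted p = 0.0852).

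Of 14 genes that supply deoxynucleotides, *Dck*, the kinase that salvages deoxycytidine, rose from 43.5 ± 3.18 to 73.3 ± 7.16 CPM (SD, n = 3; log2 fold change 0.75, edgeR adjusted p = 0.00456). *Cmpk1*, the cytosolic counterpart of *Cmpk2*, had a log2 fold change of 0.12 (95% confidence interval -0.09 to 0.33) at 312 ± 24.4 CPM in WT against 339 ± 13.0 CPM in Drp1 KO. The intervals of *Cmpk1* and *Cmpk2* (1.14 to 2.27) did not overlap, but the difference between the genes was not tested.

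**Figure D3:**
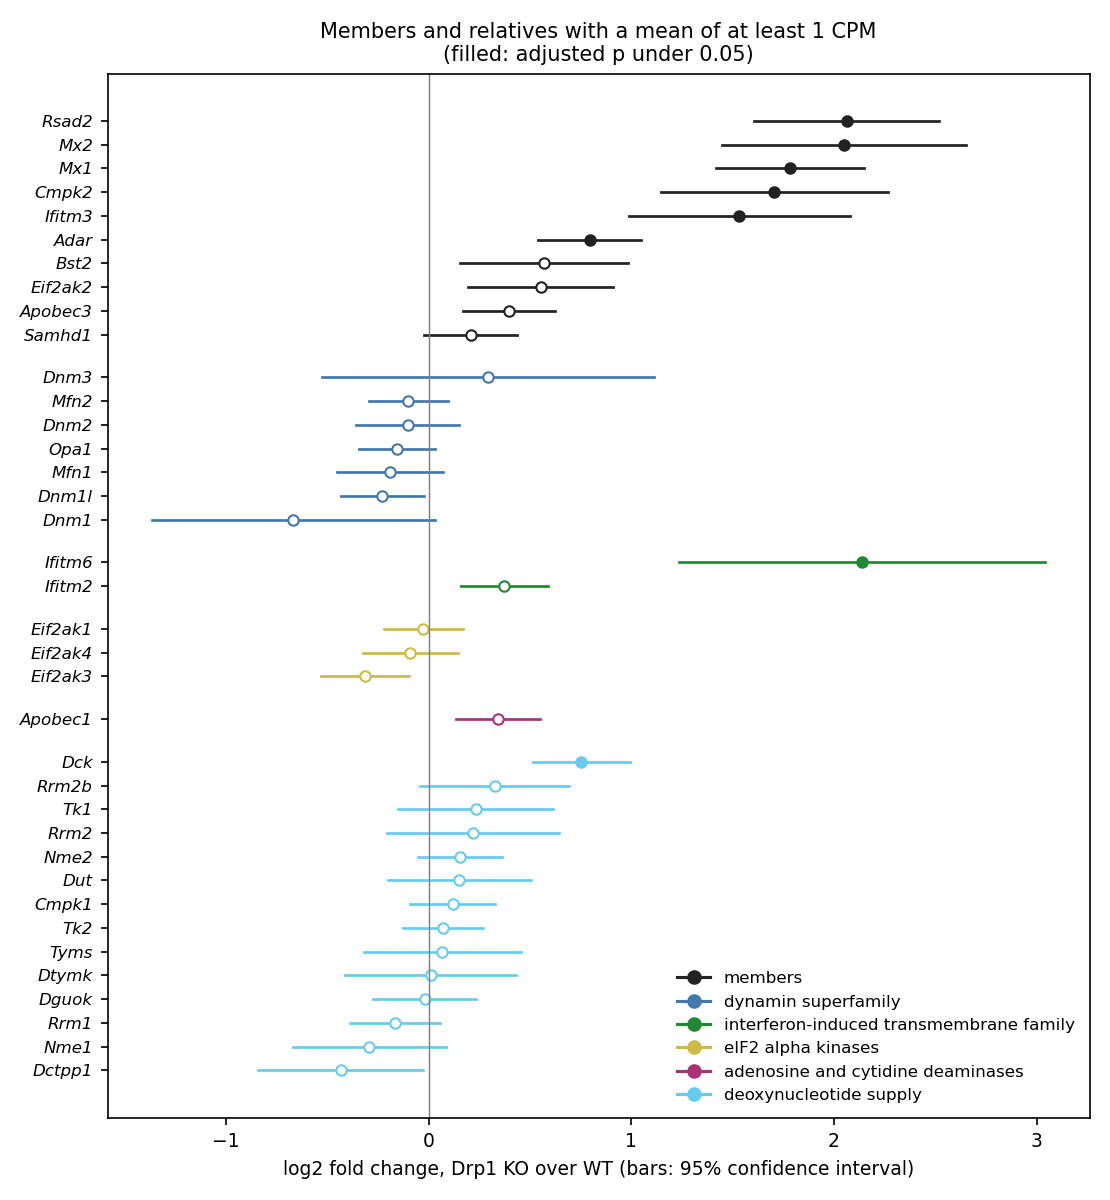
Log2 fold change of Drp1 KO over WT for the members (black) and the relatives with a mean of at least 1 CPM (coloured by family), with 95% confidence intervals as bars. Filled points passed an adjusted p under 0.05: 6 members, *Ifitm6* and *Dck*.

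The remaining genes of the interferon pathway were taken as 3 lists, chosen with earlier results of these data known. Of 62 genes tested, 31 rose, against 2.29% of all genes tested, and 0 fell, with a median log2 fold change of 0.84. By unadjusted p, 44 were higher and 0 lower, with no share over all genes at hand. DESeq2 called 34 higher and 0 lower, against 663 higher and 492 lower over all genes. Among interferon signalling genes, 6 of 18 rose. Those named are *Usp18*, a brake on the interferon receptor (log2 fold change 3.16), and *Stat2* (1.33) and *Irf9* (0.98), transcription factors of the interferon response, with edgeR adjusted p from 0.000197 to 0.00149. *Usp18* was at 6.08, 6.78 and 3.92 CPM in WT against 40.0, 53.7 and 55.6 CPM in Drp1 KO. *Ifnb1*, the gene of interferon beta, had 0 counts in WT, which allows up to 3 counts or 0.102 to 0.129 CPM in a library, and 5 counts in all in Drp1 KO. It was not tested.

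Among nucleic acid sensing genes, 6 of 15 rose, those with the smallest p being the RNA sensors *Rigi* (log2 fold change 1.46) and *Ifih1* (1.06), the nucleic acid sensor *Zbp1* (2.24) and the regulator *Dhx58* (1.25). Among 29 other antiviral effectors tested, 19 rose, against 2.29% of all genes tested. The 4 with the smallest p were *Oasl2*, *Oasl1*, *Xaf1* and *Ifi44*, with log2 fold changes of 2.23, 3.57, 2.11 and 2.82, each with an edgeR adjusted p of at most 0.000466. Interferon is known to raise these genes together with the members, so the counts are not independent of each other.

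**Figure D4:**
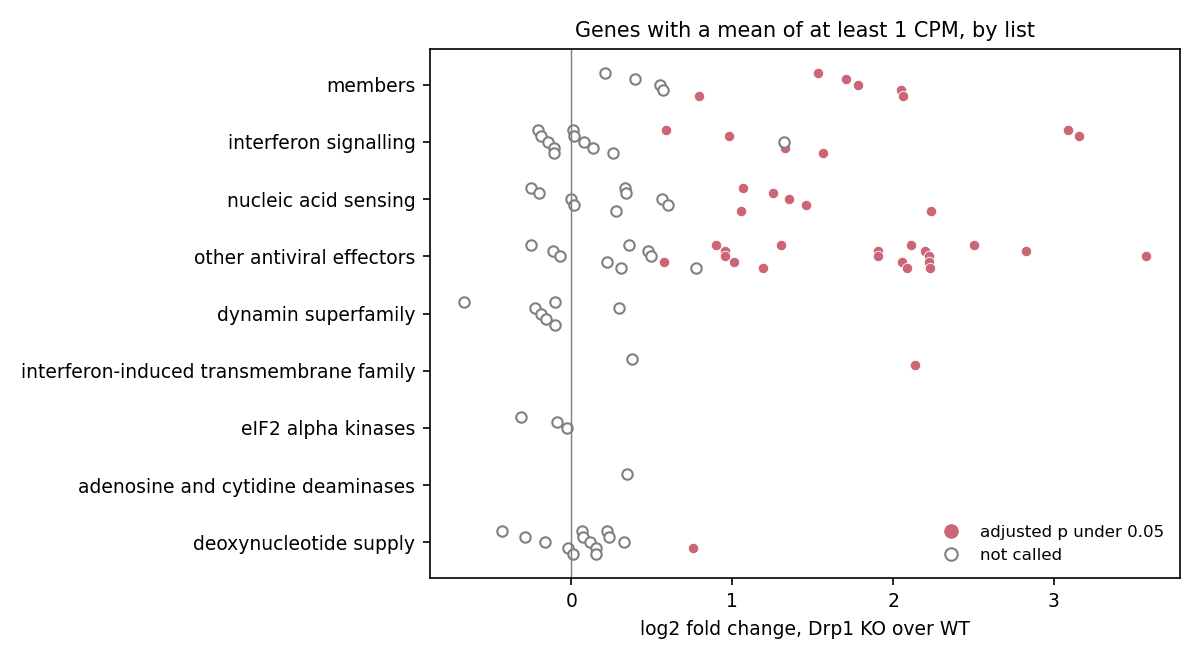
Log2 fold change of Drp1 KO over WT by list, with each point 1 gene whose mean was 1 CPM or more. Red points passed an adjusted p under 0.05. Of the genes tested, 6 of 10 members and 31 of 62 pathway genes rose, against 2 of 34 relatives and 2.29% of all genes.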

How the data were processed

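Poly(A) RNA of 3 WT and 3 Drp1 KO BMDM libraries was sequenced with paired-end reads. Per the labels, kallisto 0.46.1 and GRCm39 were used, and the authors deposited for each transcript an estimated count, not scaled between libraries, and a TPM value. Their index came from Ensembl cDNA sequences. Neither kallisto's strand setting nor an error of the transcript estimates is given in the sources used here. The labels and the paper give different oxygen levels and different shares of L929 medium.

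The members and gene lists were chosen with earlier results of these data known. The members are all named; of the other lists, up to 4 called genes with the smallest p among those with at least 1 CPM are named, of which 1 is not reported here. Relatives above that level could be named, and not all were. Transcripts were matched to GENCODE genes of GRCm39: 116159 of 116873 (99.4%), on 36137 genes, while 0.542% to 0.575% of the counts lay on the others and were left out. Counts were summed per gene and rounded. edgeR 4.0.16 (R 4.3.3) was fitted to 18506 genes with at least 10 counts in total, with TMM scaling, the quasi-likelihood test with no covariate, and Benjamini-Hochberg adjustment over all genes. It called 621 genes, 424 higher and 197 lower in Drp1 KO. Confidence intervals are 95% intervals of the fit and cover the spread between libraries. On simulated data for this comparison (18116 genes, 200 changed by 2-fold), it recovered 80% of the changed genes, and 7.51% of its calls were unchanged genes. Deposited TPM values were added per gene to compare levels, and again without retained-intron transcripts.

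Alternatives were edgeR's median-of-ratios factors, library size only, filterByExpr, at least 1 count, DESeq2 1.42.0, limma-voom (limma 3.58.1), length-scaled counts, protein-coding transcripts only, the replicate block and each library left out. Deviations from the group means of same-numbered libraries correlated at 0.547, 0.223 and 0.374 over 12248 genes with at least 1 CPM, each over 0.1. No source states a pairing, and these correlations do not single out same-numbered libraries. WT library 2 correlated more with Drp1 KO library 3 (0.344) than with Drp1 KO library 2 (0.223). Deviations cancel out within a group, so the correlations are not independent of each other. Blocked values are given beside results whose call they change, while the main test stayed unpaired. Pairs with different numbers ranged from -0.496 to 0.344. Promoter windows of 250 bases were read from GRCm39 at GENCODE canonical starts. Shared stretches were counted over 31 bases, kallisto's default, on both strands. Protein sequences were not used here.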

Additional observations from a re-analysis of the deposited data

How the results depend on the processing

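All 10 members kept a positive log2 fold change under every alternative fitted. Of 149 values of a member under an alternative, 135 kept their side of the threshold, 11 passed where they had not, and 3 no longer passed. *Rsad2*, *Cmpk2*, *Mx1* and *Mx2* were called under each alternative, though *Mx2* could not be fitted with protein-coding transcripts only because it has none. The other 31 genes tested by name kept their direction and side of the threshold in 435 of 465 values, 14 passed where they had not, 15 no longer passed, and 1 changed sign with no call in either case, that of *Eif2ak1* without WT library 3, whose log2 fold change lay between -0.0603 and 0.00543 when 1 library was omitted. The number of members called was 6, with 8 for DESeq2 and for at least 1 count, 9 with the replicate block and 4 to 8 with a library left out. Pathway genes called ran from 25 to 36 with a library left out and reached 40 with the replicate block, against 31. Over all genes, 621 calls became 1065 with at least 1 count, 1155 with DESeq2 and 2212 with the replicate block, and spanned 181 to 904 when 1 library was omitted. Leaving out WT library 2 gave 181 and WT library 3 gave 217, while the omission of Drp1 KO library 2 gave 268 and that of library 3 gave 348. For relatives, 2 calls became 4 with DESeq2 and 6 with the replicate block, and 1 to 2 with a library left out, where 1 was called upon omitting WT library 2 or 3 or the Drp1 KO library 2. Fits with a library left out rest on fewer libraries, though omitting WT library 1 or Drp1 KO library 1 raised the calls over all genes to 744 and 904. The cause of these changes was not tested. Of 6 main transcripts, 3 had shares that did not overlap between groups, with 3 to 4 when a library was left out and 2 with TPM. The block turned no call of a member into a miss. With 3 libraries per group, outlying libraries within a group were not tested. *Apobec3* had a larger log2 fold change than *Samhd1* (0.40 against 0.21) with a similar SE (0.102), and did not pass either (edgeR adjusted p = 0.0699). Differences the size of that of *Samhd1* may therefore be missed with this spread between libraries.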
